A study of Mus musculus with 6 samples.

Results

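The genes described here are 39 regulators of pre-mRNA splicing: the CLK kinases and cyclins L, the SR proteins, SR-related splicing factors, 2 DEAD-box helicases and the hnRNPs. They were chosen by gene symbol, and all 39 are among the 18705 distinct symbols of the deposited tables, each listed once. All 39 passed the filter on low values. The choice was made with the R159 against vehicle values already known, so these values are given as a description, and the calls below label each gene without serving as support.

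Poly(A) RNA was sequenced from whole liver of male C57BL/6 mice, aged 1 year when placed on a high-fat diet. One group (3 libraries) received R159, a compound known here by its code name alone, and the other (3 libraries) received vehicle, each by intraperitoneal injection 2 times a week for 12 weeks. Diet, sex, strain and age were shared by the groups, and no mice on another diet were analysed here. The labels number the libraries within a group but do not state that each is a separate animal, so the spread between libraries may in part be technical.

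Splicing removes introns in the spliceosome, and the choice of splice sites depends on proteins that bind the pre-mRNA. SR proteins carry a domain rich in arginine and serine, bind exonic enhancers and as a rule favour exon inclusion, while many hnRNPs bind silencers and favour skipping. CLK kinases phosphorylate the SR proteins in the nucleus, and cyclins L pair with CDK11 in nuclear speckles. Many of these genes hold down their own output: excess protein shifts splicing towards a transcript that keeps an intron in the nucleus or takes up a poison exon and is degraded. A gene-level value, which is all the tables hold, adds such transcripts to the coding ones.

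Values are normalised estimated counts, meaning gene counts divided by 1 factor per library. Fold changes are on the log2(value + 1) scale, R159 minus vehicle, with the SE from limma, and a gene is called when its Benjamini-Hochberg adjusted p over all 16594 genes tested is under 0.05. By that rule limma called 27.0% of all genes tested, 12.8% higher and 14.2% lower in R159. All 3 R159 values lay above all 3 vehicle values for 22.5% of genes and below them for 23.6%.

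Every CLK kinase and every cyclin L gene was called higher in R159 liver, by 2.51 to 4.10 times in mean value. Of the 11 SR proteins 6 were called higher and 0 lower, and of the 13 SR-related factors 7 were higher and 1 lower. Of the 7 hnRNPs 1 was called higher, and the median log2 fold change of the 7 was 0.06, beside 1.57 for CLK kinases and cyclins L, 0.67 for SR proteins, 0.69 for SR-related factors and 0.001 over all genes tested. Scaling each library to its sum without the 20 highest genes left 6 of 6 CLK kinases and cyclins L, 3 of 11 SR proteins, 4 of 13 SR-related factors and 0 of 7 hnRNPs called higher, and it turned the hnRNP median to -0.051 while that of all genes moved to -0.11. The same 4 counts were found with eBayes without a trend, on the deposited scaling. Srsf5, Srsf11, Tra2a, Luc7l, Luc7l2, Rbm5 and Hnrnph1 lost their call in each of these fits, and Srrm1 in the latter. In all, 20 of 39 members were called higher and 1 lower. R159 values lay entirely above vehicle for 30 members, entirely below for 2, and overlapped for 7. Nothing is read from these counts against the percentages above, because the members were picked on this comparison.

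**Figure D1:**
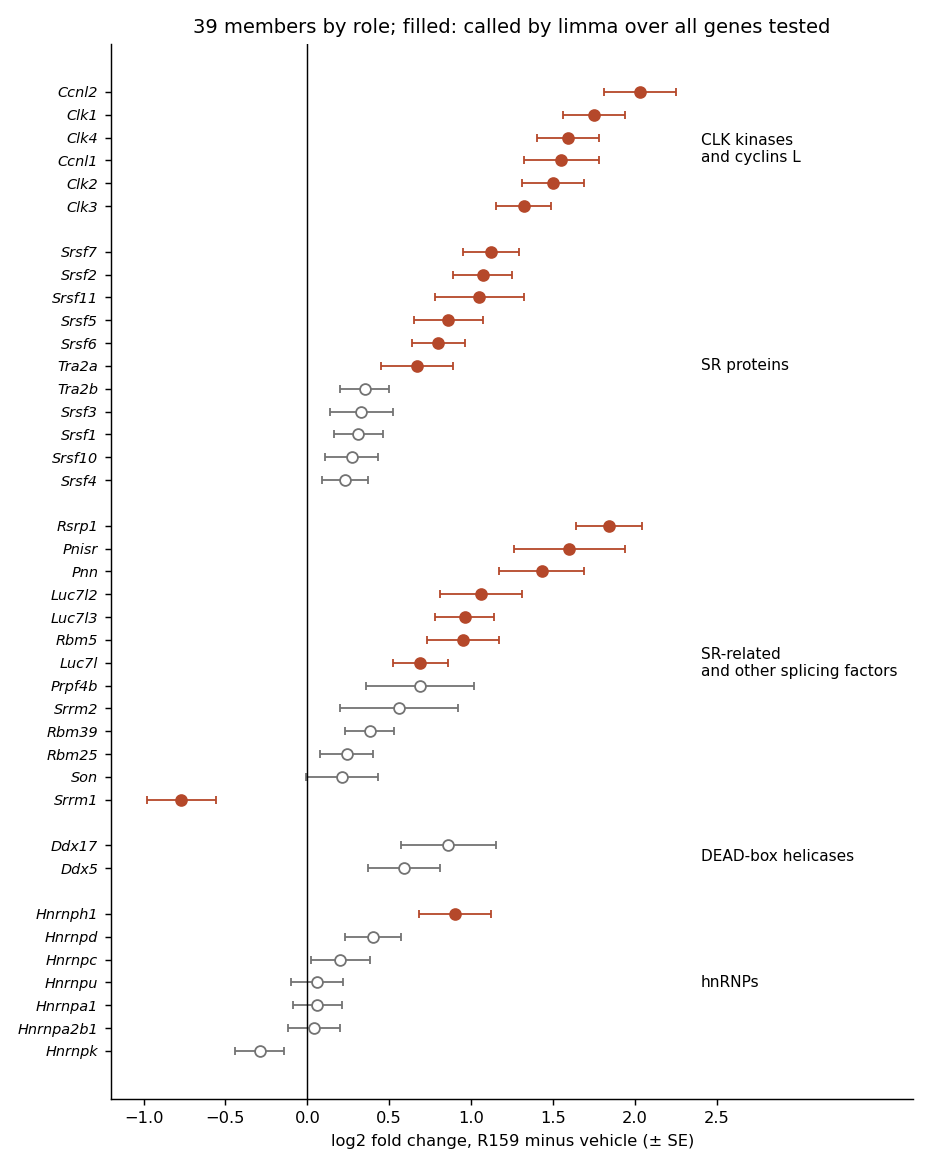
Log2 fold change (R159 minus vehicle, horizontal axis) with its SE for each of the 39 members, ordered within 5 roles. Filled points were called by limma; the 6 CLK kinases and cyclins L run from 1.32 to 2.03, while 6 of the 7 hnRNPs were not called.

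The promoters of Ccnl2, Rsrp1, Clk4 and Ccnl1 are shown because these genes, together with Clk1 and Pnisr, had the largest differences, and that of Hnrnpa2b1, the hnRNP nearest to no change, stands beside them. RefSeq windows (GRCm38.p6) were matched by symbol for 36 of 39 members, not including Clk1 or Pnisr, and each line gives the 250 bases before the annotated start, 5′ to 3′ on the gene's strand. Capitals mark the core of the cAMP response element, TGACG, on either strand. The windows are chr4:155812239-155812488 (+) for Ccnl2, chr4:134923375-134923624 (+) for Rsrp1, chr11:51262864-51263113 (+) for Clk4, chr3:65958250-65958499 (-) for Ccnl1 and chr6:51469895-51470144 (-) for Hnrnpa2b1.
Ccnl2: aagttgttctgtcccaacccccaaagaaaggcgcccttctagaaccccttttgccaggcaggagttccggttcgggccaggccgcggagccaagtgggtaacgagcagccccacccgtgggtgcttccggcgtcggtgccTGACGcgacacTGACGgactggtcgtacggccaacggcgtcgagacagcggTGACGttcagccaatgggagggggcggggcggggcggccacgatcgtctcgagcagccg
Rsrp1: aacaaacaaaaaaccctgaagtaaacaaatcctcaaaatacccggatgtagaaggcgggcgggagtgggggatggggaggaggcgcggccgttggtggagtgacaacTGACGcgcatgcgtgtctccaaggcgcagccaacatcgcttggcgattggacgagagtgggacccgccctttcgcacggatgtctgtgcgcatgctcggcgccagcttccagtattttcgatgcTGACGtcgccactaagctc
Clk4: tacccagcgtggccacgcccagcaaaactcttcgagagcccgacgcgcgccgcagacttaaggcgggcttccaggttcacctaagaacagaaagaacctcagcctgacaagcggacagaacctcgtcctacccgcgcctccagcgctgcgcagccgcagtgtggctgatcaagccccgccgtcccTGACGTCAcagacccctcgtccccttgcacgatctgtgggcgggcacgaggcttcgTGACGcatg
Ccnl1: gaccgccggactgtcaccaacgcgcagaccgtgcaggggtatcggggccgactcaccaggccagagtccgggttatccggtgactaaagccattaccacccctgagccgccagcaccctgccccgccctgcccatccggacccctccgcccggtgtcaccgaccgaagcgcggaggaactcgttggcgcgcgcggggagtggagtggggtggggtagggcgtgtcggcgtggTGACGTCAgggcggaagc
Hnrnpa2b1: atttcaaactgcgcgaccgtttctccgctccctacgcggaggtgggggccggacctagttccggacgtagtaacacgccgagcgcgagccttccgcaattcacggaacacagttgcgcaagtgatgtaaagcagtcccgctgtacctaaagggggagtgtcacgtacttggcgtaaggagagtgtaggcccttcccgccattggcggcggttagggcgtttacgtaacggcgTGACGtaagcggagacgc
A gene was counted when any of its windows held the motif. The core TGACG was found in all 5 CLK kinases and cyclins L with a window (Clk2, Clk3, Clk4, Ccnl1 and Ccnl2). It was found in 8 of 11 SR proteins, 3 of 11 SR-related factors, 1 of 2 helicases and 4 of 7 hnRNPs, 21 of 36 members in all. The core was found in 28.9% of the 11573 tested genes with a window (19.8% of all 27025 genes with one). Its palindrome TGACGTCA, which contains the core on each strand, was found in Clk4, Ccnl1 and Tra2a, and in 2.81% of tested genes. The SP1 box GGGCGG, searched on both strands as well, was present in 25 of 36 members and in 60.0% of tested genes. By role it was present in 5 of 5 CLK kinases and cyclins L, 10 of 11 SR proteins, 4 of 11 SR-related factors and 4 of 7 hnRNPs. The other motifs searched were CCAAT (19 of 36 members, 40.2% of tested genes), the ETS site CCGGAAG (11, 14.4%), the TATA box (5, 8.70%) and the NRF1 site (2, 1.70%). Hnrnpa2b1, whose level hardly differed, also carried the core once in the window shown, the first of its 2. A match describes letters in a window and is no evidence of binding.

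Clk1, the best studied kinase of the family, measured 1603, 1915 and 1420 in vehicle replicates 1 to 3 and 6798, 4874 and 4981 in R159 replicates 1 to 3. The lowest R159 library was thus well above the highest vehicle library, and the log2 fold change was 1.75 (SE 0.19). Clk4, its closest relative, measured 962, 1043 and 780 in vehicle and 3382, 2456 and 2568 in R159, a log2 fold change of 1.59 (SE 0.19). In Clk1 and in Clk4 R159 replicate 1 was the highest library and the other two were close to each other.

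Clk2 measured 669, 705 and 544 in vehicle and 2001, 2017 and 1445 in R159, a log2 fold change of 1.50 (SE 0.19). Clk3 measured 1454, 1756 and 1517 in vehicle and 4450, 4144 and 3252 in R159, which gave the smallest difference of the 6, 1.32 (SE 0.17). For Clk2 and Clk3 it was R159 replicate 3 that lay lowest, and the groups again did not overlap.

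Ccnl1, which encodes cyclin L1, measured 1164, 1136 and 854 in vehicle and 4207, 2555 and 2646 in R159, a log2 fold change of 1.55 (SE 0.23). Ccnl2, which encodes cyclin L2, measured 2202, 2769 and 1809 in vehicle and 11793, 8062 and 7962 in R159. Its log2 fold change of 2.03 (SE 0.22) was the largest among the 39 members. Vehicle replicate 3 was the lowest library for Ccnl1 and Ccnl2, as for Clk1, Clk2 and Clk4. Each of the 6 genes was called in all 16 other fits, including each fit without 1 library, and without R159 replicate 1 the 6 mean values were still 2.35 to 3.55 times those of vehicle.

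**Figure D2:**
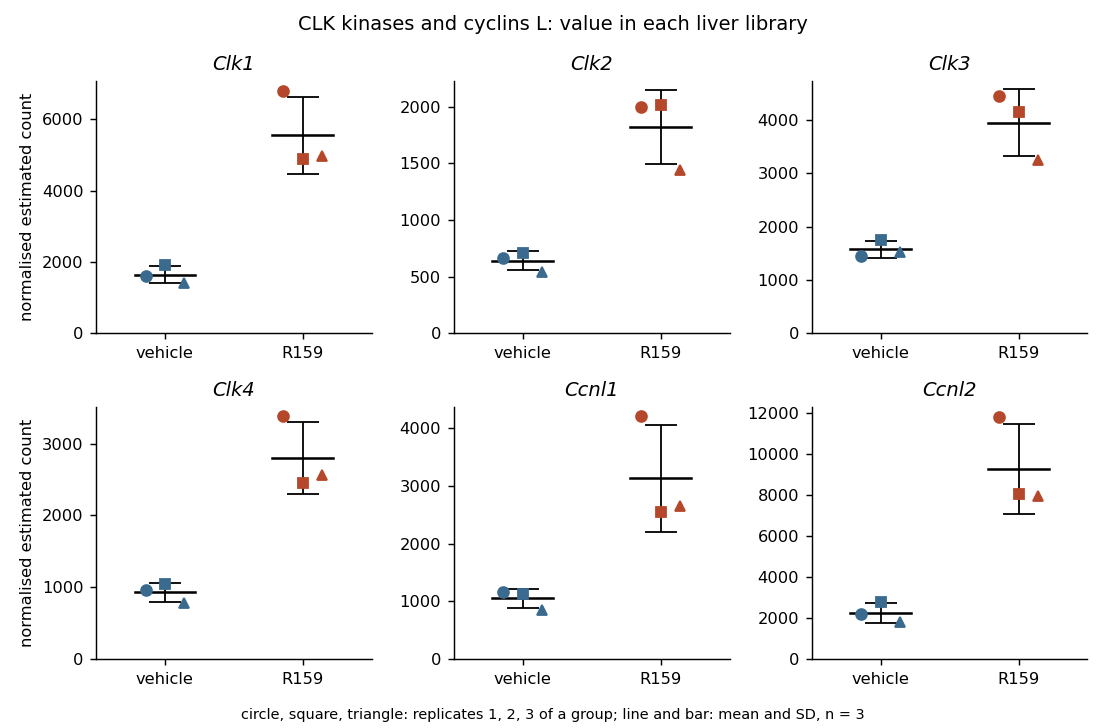
Normalised estimated count (vertical axis, from 0) of the 6 CLK kinase and cyclin L genes in each of the 3 vehicle and 3 R159 libraries, with mean and SD. In all 6 panels the R159 libraries lie above the vehicle libraries, and R159 replicate 1 is highest in 5 of them.

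A ratio of genes within 1 library does not depend on the scaling between libraries. The summed value of the 6 CLK kinase and cyclin L genes, divided by that of the 7 hnRNP genes, was 0.166, 0.179 and 0.135 in vehicle replicates 1 to 3 and 0.586, 0.485 and 0.416 in R159. On the deposited scaling the hnRNP sum was 50660 ± 1960 in vehicle and 53467 ± 3243 in R159 (SD, n = 3). The CLK kinase and cyclin L sum was 8101 ± 1201 in vehicle and 26531 ± 5320 in R159. Unlike the ratio, each sum depends on that scaling. The SR protein sum over the hnRNP sum was 0.649, 0.602 and 0.583 in vehicle and 1.15, 0.965 and 0.805 in R159. For each ratio the groups did not overlap. The genes of the sums were picked on this comparison, so the ratios are given as a description.

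Among the 11 SR proteins the 6 called higher had log2 fold changes of 0.67 to 1.12, and the other 5 were not called. Srsf7, which binds RNA through a zinc knuckle as well as its recognition motif, measured 1136, 944 and 853 in vehicle and 2396, 2027 and 1917 in R159, a log2 fold change of 1.12 (SE 0.17). Srsf2, also called SC35 and often used as a marker of nuclear speckles, measured 4016, 4105 and 3649 in vehicle and 9863, 8741 and 6461 in R159 (1.07, SE 0.18). The groups were apart for Srsf7 and for Srsf2, and each was called in all 16 other fits.

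Srsf11 measured 1681, 1854 and 1472 in vehicle and 5534, 2607 and 2835 in R159 (1.05, SE 0.27). Srsf5 measured 8856, 9694 and 9634 in vehicle and 23353, 15008 and 14148 in R159 (0.86, SE 0.21). R159 replicate 1 stood above the other two by 2.03 times their mean in Srsf11 and 1.60 times in Srsf5, while the vehicle libraries were close together. Srsf11 was not called without vehicle replicate 1, 2 or 3 (1.06, 1.13 and 0.96), nor was Srsf5 (0.82, 0.88 and 0.88). These fold changes stayed near those of the full fit, and fewer genes over all tested were called each time a vehicle library was left out. That drop over all genes also applies to the losses without a vehicle library given below. Some fold changes there moved further from the full fit, as for Tra2a without vehicle replicate 3. Why the calls were lost was not tested. Srsf5 was also not called with the transcript length trend removed (0.58).

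The other 2 called SR proteins were Srsf6 (0.80, SE 0.16), which was called in every fit, and Tra2a (0.67, SE 0.22), which kept its call without R159 replicate 2 and lost it without R159 replicate 1 or 3 (0.48 and 0.71) or vehicle replicate 1, 2 or 3 (0.76, 0.71 and 0.55). Tra2a was also not called with the replicate number as a block or with no filter on low values (each 0.67), nor with the length trend removed (0.48), and in all it was called in 6 of 16 other fits. Srsf1, Srsf3, Srsf4, Srsf10 and Tra2b were not called, with log2 fold changes of 0.23 to 0.35. Srsf4, the nearest to 0 of the SR proteins, measured 2885, 3035 and 2926 in vehicle and 3255, 3325 and 3852 in R159 (0.23, SE 0.14). Its groups did not overlap, and its highest library was R159 replicate 3. Among the 11 SR proteins Srsf3, the smallest of the classical SR proteins, was the only one whose groups overlapped.

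The SR-related factors spread most widely. Rsrp1, an arginine and serine rich protein of little studied function, measured 8125, 8004 and 6851 in vehicle and 35478, 25001 and 23233 in R159, a log2 fold change of 1.84 (SE 0.20). Pnisr, an SR-related nuclear protein, measured 1446, 1888 and 1288 in vehicle and 8503, 3538 and 3244 in R159 (1.60, SE 0.34). Its mean value was 3.31 times that of vehicle, and 2.20 times without R159 replicate 1. Rsrp1 did not depend on 1 library in this way, at 3.64 times with it and 3.15 times without.

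Pnn encodes pinin, which joins splicing factors at the exon junction complex. It measured 1813, 1864 and 1315 in vehicle and 6675, 3526 and 3698 in R159 (1.43, SE 0.26). Luc7l2, a relative of the yeast U1 snRNP protein Luc7 that acts at the 5′ splice site, measured 3415, 3842 and 3333 in vehicle and 11479, 5880 and 5934 in R159 (1.06, SE 0.25). The groups were apart in these genes, and R159 replicate 1 was again the highest. Pnn was called in every fit, whereas Luc7l2 was not called without vehicle replicate 1 (1.04) or vehicle replicate 3 (1.02).

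Of the remaining called members of this role, the Luc7 relative Luc7l3 (0.96) was called in every fit. Rbm5, a regulator of exon skipping in apoptosis genes (0.95), was not called without vehicle replicate 3 (0.88), and Luc7l (0.69) was not called without vehicle replicate 1, 2 or 3 (0.66, 0.68 and 0.72). Prpf4b, a kinase of the spliceosome, Srrm2, a scaffold of nuclear speckles, Rbm39, Rbm25 and Son were not called, at 0.69, 0.56, 0.38, 0.24 and 0.21. R159 replicate 1 set the means of some of these: Srrm2 measured 29780 there against 9848 and 11813 in replicates 2 and 3, and its ratio to vehicle went from 1.66 to 1.05 without that library. Prpf4b went from 1.78 to 1.18 in the same way. Son, another speckle scaffold and the nearest to 0, measured 6839, 7812 and 7667 in vehicle and 11996, 7797 and 6839 in R159, so its groups overlapped.

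Srrm1, singled out after its values were seen, was the only member called lower. It encodes SRm160, a coactivator that bridges SR proteins and snRNPs, and measured 3550, 3400 and 4269 in vehicle and 2917, 1666 and 2118 in R159 (-0.77, SE 0.21). The groups did not overlap. Its call held in the fit without R159 replicate 1 and was lost without R159 replicate 2 (-0.58), R159 replicate 3 (-0.76) or vehicle replicate 1, 2 or 3 (-0.81, -0.84 and -0.68), and with the length trend removed (-0.57).

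The helicases Ddx5 and Ddx17, known as p68 and p72, unwind RNA and act in splicing and transcription. Ddx5 measured 17207, 18657 and 16556 in vehicle and 36472, 22630 and 22164 in R159 (0.59, SE 0.22). Ddx17 measured 5133, 6333 and 4948 in vehicle and 16384, 7395 and 7861 in R159 (0.86, SE 0.29). All R159 values were above all vehicle values in each gene, but the spread within R159 was wide and neither was called. Without R159 replicate 1 the ratio of means was 1.28 for Ddx5 and 1.39 for Ddx17, and Ddx17 was then called (0.49), as it was without R159 replicate 2 (1.06) and with the replicate number as a block (0.86). With the length trend removed Ddx5 (0.77) and Ddx17 (1.18) were each called.

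Among hnRNPs, Hnrnph1 was the 1 gene called. It encodes a protein that binds runs of G, and measured 2614, 2949 and 2207 in vehicle and 6558, 3885 and 4341 in R159 (0.90, SE 0.22). It was not called without vehicle replicate 1 (0.91) or vehicle replicate 3 (0.79). Hnrnpd, also known as AUF1 and a regulator of mRNA decay, measured 2356, 2177 and 2338 in vehicle and 2466, 3619 and 3076 in R159 (0.40, SE 0.17). Its R159 values were all higher, with replicate 1 the lowest of them, and it was called without that library (0.54).

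Hnrnpk, which binds runs of C, measured 10860, 11871 and 11971 in vehicle and 9564, 9001 and 9813 in R159 (-0.29, SE 0.15). Its groups did not overlap and it was not called. Hnrnpc, which binds runs of U in nascent RNA, measured 4795, 4388 and 4792 in vehicle and 4303, 5550 and 6420 in R159 (0.20, SE 0.18), with overlap between the groups. Hnrnpa2b1, the nearest to 0, measured 14031, 15664 and 14676 in vehicle and 15687, 13500 and 16406 in R159 (0.04, SE 0.16). The groups also overlapped for Hnrnpa1 and Hnrnpu, each at 0.06. Hnrnpa1 has many processed pseudogenes, so its estimated counts may be divided uncertainly.

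**Figure D3:**
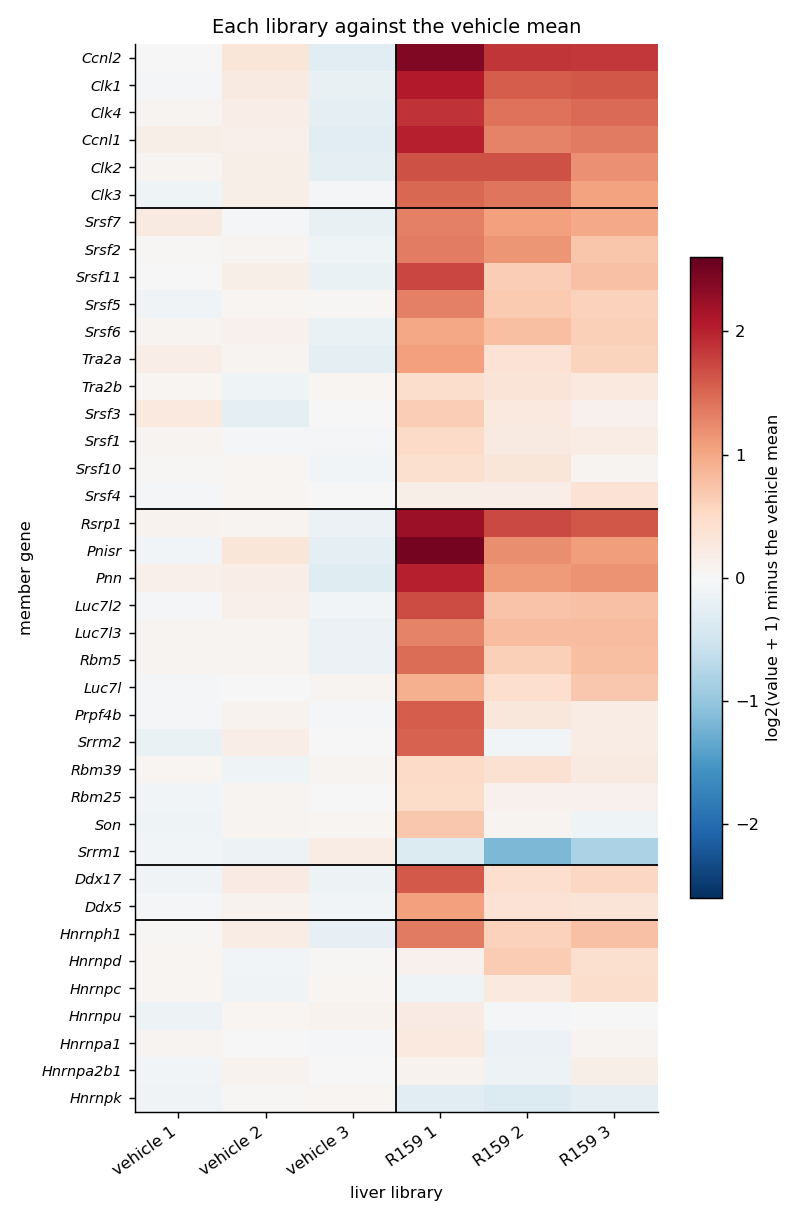
Difference of each library from the vehicle mean, on the log2(value + 1) scale, for the 39 members (rows, ordered within 5 roles separated by lines) in 3 vehicle and 3 R159 libraries (columns). R159 replicate 1 has the deepest red for most members outside the hnRNPs, and Srrm1 and Hnrnpk are blue in all 3 R159 libraries.

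R159 replicate 1 stood apart from the other R159 libraries for these genes. It held the highest R159 value in 33 of 39 members, beside 37.7% of all genes tested. Within R159 the median coefficient of variation was 19.6% over the members, and within vehicle it was 8.52%, beside 25.7% and 14.2% over all genes tested. Without R159 replicate 1, 21 members were called higher and 1 lower, and 5425 of 16458 genes tested were called, against 4479 in the full fit. Without vehicle replicate 3, 13 members were called higher and 0 lower, and genes called over all tested fell to 2183.

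Per kilobase of the longest coding transcript, the level in vehicle ranged from 185 for Luc7l to 8559 for Hnrnpa2b1. After Hnrnpa2b1 followed Srsf5 (5991 per kilobase), Ddx5 (4910) and Rsrp1 (4380). In R159 the highest level per kilobase was that of Rsrp1, 15954, followed by Srsf5, 11163, and then Hnrnpa2b1, 8795. Among the kinases and cyclins, Ccnl2 and Clk1 were close in vehicle, 925 and 916 per kilobase, and Clk2 was lowest, 297. The libraries' spread overlapped for Ccnl2 and Clk1 in vehicle, so their order there is not established.

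The R159 to vehicle difference of a gene in these data was related to transcript length (Spearman's rho -0.497 across 11168 coding genes, which are not independent replicates). The median length was 2162 nt for CLK kinases and cyclins L, 2618 nt for SR proteins, 4253 nt for SR-related factors, 4146 nt for the helicases and 2847 nt for hnRNPs, against 2838 nt over the tested genes with a length. Over all 39 members it was 3106 nt. Across the 39 members rho between fold change and length was -0.30, given as a description. With the length trend removed, 29 members were called higher and 0 lower, where 9.52% of tested genes were called higher. All 6 CLK kinases and cyclins L were among them, with a median of 1.45. SR proteins then had 7 called, SR-related factors 11, the helicases 2 and hnRNPs 3, the last being Hnrnph1, Hnrnpd and Hnrnpu (0.86, 0.86 and 0.53).

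Annotated transcript types were not used in the choice of members. In the GENCODE M21 annotation, 34 of 39 have at least 1 transcript annotated as retaining an intron and 34 have at least 1 annotated as a target of nonsense-mediated decay, against 57.1% and 27.8% of the coding genes tested. All 6 CLK kinases and cyclins L have both kinds, as do 10 of 11 SR proteins and 4 of 7 hnRNPs, beside 21.6% of coding genes tested. Intron-retaining transcripts are also annotated for 37 of 44 core snRNP genes (84.1%, beside 87.2% of members), and 16 of 22 other hnRNPs have one. Transcripts annotated for decay are found in 15 of 44 core snRNP genes and 10 of 22 other hnRNPs, and these differences were not tested. Members also have more annotated transcripts, a median of 10 against 5, and the part of annotation depth in these shares was not tested. The number of annotated intron-retaining transcripts did not order the members by fold change (rho 0.03 over 39 members). Another annotated gene overlaps 18 members on the opposite strand, among them Clk3, Clk4 and Ccnl1. That is 46.2% of members, beside 43.9% of coding genes tested, and whether strand was used in counting is not given in the sources used here.

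Other genes of the splicing pathway did not share one direction. Of 8 other SR protein kinases and CDK partners tested (1 more, Srpk3, was under the filter), 0 were called higher and 2 lower, with a median log2 fold change of -0.28. Over all genes tested 12.8% were called higher and 14.2% lower. The 2 called lower were Ccnk, the cyclin of CDK12 and CDK13 (-0.68, SE 0.22), and Dyrk1a (-0.54, SE 0.16). With the length trend removed 0 were higher and 0 lower, at -0.64 for Ccnk and -0.13 for Dyrk1a, and the median was -0.01. Srpk1, the main cytoplasmic kinase of SR proteins, measured 1519, 1507 and 1506 in vehicle and 1738, 1356 and 1242 in R159. Its groups overlapped. Srpk3, near the floor and not tested, measured 4.15, 1.46 and 0.838 in vehicle and 18.4, 12.9 and 13.5 in R159, without overlap.

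Of 22 other hnRNPs and relatives, 3 were called higher and 5 lower, beside 12.8% and 14.2% of all genes tested. The largest differences were those of Hnrnpdl (0.88, SE 0.20), a relative of Hnrnpd, and of Ptbp3 (-0.92, SE 0.15), a relative of the polypyrimidine tract binding protein. With the length trend removed, 3 were higher and 0 lower, beside 1530 and 1588 of 16064 genes tested. Srsf9 was not called (0.13).

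Of 44 core snRNP proteins, 9 were called higher and 11 lower, with a median of 0.14. Over all genes tested the shares were 12.8% higher and 14.2% lower. Snrpg, a small protein of the Sm ring, had the largest positive difference (1.69, SE 0.27), and Prpf19 and Dhx15 the largest negative ones (each -0.88). With the length trend removed 4 were higher and 5 lower, beside 1530 and 1588 of 16064 genes tested. Snrpg (1.11) and Dhx15 (-0.80) kept their calls, and Prpf19 (-0.44) was then not called. Of 15 genes of the exon junction complex and nonsense-mediated decay, 1 was called higher, Magoh (1.01, SE 0.30), and 0 lower. Magoh was not called with the length trend removed (0.19).

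**Figure D4:**
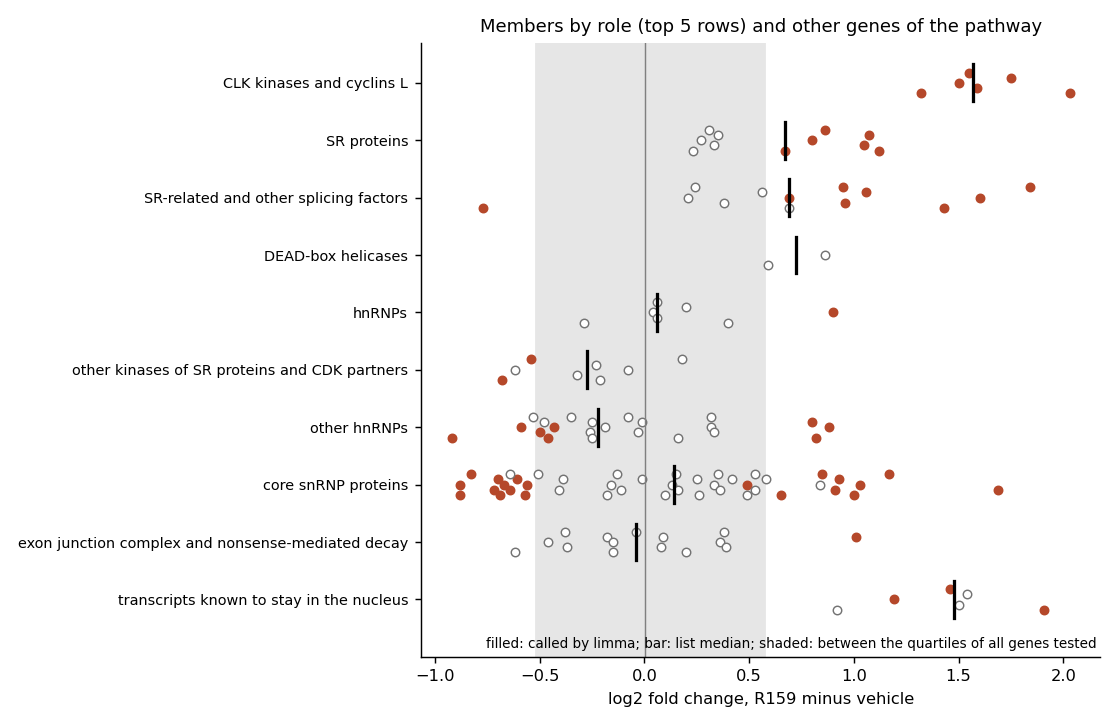
Log2 fold change (R159 minus vehicle, horizontal axis) of each tested gene in the 5 roles of members and 5 other lists of the pathway. Filled points were called by limma, black bars are list medians, and the shaded band lies between the quartiles of all genes tested. The median is 1.57 for CLK kinases and cyclins L, -0.28 for the other kinases and CDK partners and 1.48 for transcripts known to stay in the nucleus. The lists were chosen with earlier results of these data known.

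Transcripts known to stay in the nucleus were measured as well, since Clk1 and some other members are known for transcripts that keep an intron and remain there. The list was chosen with earlier results of these data known, so its values are given as a description. Of 6 such transcripts, 3 were called higher and 0 lower, with a median log2 fold change of 1.48. Over all genes tested 12.8% were called higher and 14.2% lower. Malat1, a long noncoding RNA of nuclear speckles, measured 3594, 2304 and 1656 in vehicle and 12134, 7882 and 7632 in R159 (1.91, SE 0.29). Mlxipl, a coding mRNA that is kept in hepatocyte nuclei, measured 8601, 14378 and 8867 in vehicle and 37730, 25219 and 24157 in R159 (1.46, SE 0.26). In Malat1 and Mlxipl the groups were apart and R159 replicate 1 was the highest library.

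Nlrp6, likewise kept in hepatocyte nuclei, measured 5249, 6341 and 6115 in vehicle and 14546, 10895 and 15336 in R159 (1.19, SE 0.18). Neat1, the scaffold of paraspeckles, measured 17276, 9811 and 5769 in vehicle and 18389, 17016 and 21279 in R159. It was not called, and vehicle replicate 1 overlapped the R159 range. The imprinted noncoding RNA Meg3 measured 34.1, 51.0 and 18.5 in vehicle and 259, 82.0 and 39.2 in R159, with overlap, and was not called. Kcnq1ot1, also imprinted, measured 68.1, 37.9 and 27.6 in vehicle and 229, 94.9 and 78.4 in R159, without overlap, and was not called either. The part that nuclear RNA content of the libraries has in the members' differences was not tested.

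Estimated depth was 51.26 to 55.74 M reads in R159 and 65.96 to 76.69 M reads in vehicle, so counting noise is small for the members, whose lowest value in any library was 514 (Tra2a). Libraries correlated at 0.979 to 0.986 within vehicle, 0.939 to 0.949 within R159 and 0.910 to 0.942 between groups (Pearson's r across genes). Hepatocyte markers, all 6 measured, summed to between 4570614 and 7495133 in R159 and between 3729339 and 5606575 in vehicle, and Alb, the gene of serum albumin, was the highest of them in every library. Erythroid markers (4 of 4) summed to 29997 to 40967 in R159 and 10308 to 16036 in vehicle, and T and B cell markers (5 of 5) to 303 to 510 and 222 to 301. Cholangiocyte markers (5 of 5) summed to 2049 to 4129 in R159 and 4134 to 12087 in vehicle, stellate cell and fibroblast markers (5 of 5) to 9626 to 21049 and 16275 to 29646, macrophage markers (5 of 5) to 6488 to 8997 and 8118 to 13017, and sinusoidal endothelial markers (5 of 5) to 4472 to 5790 and 4883 to 6769. Markers of the same type did not always agree. Among cholangiocyte markers, R159 values lay entirely below vehicle for 2 (Epcam and Spp1) and entirely above for 1 (Krt7). Spp1 was the highest of the 5 in every library. Of stellate cell and fibroblast markers 3 lay entirely below and 0 above, and Dcn overlapped. Of macrophage markers 2 lay entirely below and 0 above. Of sinusoidal endothelial markers 1 lay entirely above and 0 below. Erythroid markers had 3 entirely above and 0 below, T and B cell markers 2 and 0, and hepatocyte markers 2 and 0. Over all genes tested 22.5% lay entirely above and 23.6% entirely below. In bulk liver, fewer cells of a type and less RNA per cell cannot be told apart. The part of depth and of cell makeup in the members' differences was not tested.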

How the data were processed

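The authors deposited 1 table per liver library, holding a gene symbol and a value in 18720 rows. The deposited values are a signal, here read as fractional estimates of gene counts scaled by a single factor for each library: the median log2 ratio to the geometric mean was 0.0076 in all 6. The submitters' processing notes name STAR 2.7.8a, cutadapt, FastQC 0.11.9, R 4.2.3, DESeq2 (3.5 in the notes) and mm39. Neither the counter nor the annotation is known from the labels. Of values under 200 estimated reads 67.8% to 76.0% were whole within 0.02 reads, too few for a count model.

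The filter was a mean of 10 over the libraries, passed by 16594 genes and failed by 2126. The test was limma 3.58.1 (R 4.3.3) on log2(value + 1), with an eBayes trend, no covariate, Benjamini-Hochberg adjustment and a threshold of 0.05. On this scale the fold change of a gene with low values comes out too small. The fit was checked on simulated data.

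Transcript length (longest coding transcript), overlaps and transcript types came from GENCODE M21, on another mouse build than mm39, matched by symbol (96.8% of tested genes had a length). The length trend was removed with a lowess curve (span 0.3) per library. The members and lists were chosen with earlier results of these data known. Values per library are given for all CLK kinases and cyclins L, both helicases, and in each other role the 4 members of largest absolute fold change and the 1 nearest to 0. In each other list of the pathway the called gene of largest change in each direction is named, and every nuclear transcript. Other settings tried were 2 scalings (trimmed mean of M values, and the sum without the 20 highest genes), 2 pseudocounts (0.5 and 8), 2 filters (none, and a mean of 50), eBayes without trend, a threshold of 0.1, each library left out in turn, the replicate number as a block, and weights per sample.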

Additional observations from a re-analysis of the deposited data

How the results depend on the processing

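Members called numbered 21 in the fit described, and 13 with eBayes without trend (13 higher, 0 lower). Leaving out each library in turn gave 13 to 22 members called and 1841 to 5425 genes called among all tested, against 4479; the fewest members were called without vehicle replicate 3, and all genes called fell to 2500, 1841 and 2183 without vehicle replicate 1, 2 and 3. Scaling to the sum without the 20 highest genes shifted the median log2 fold change of all genes to -0.11 and gave 14 members called (13 higher, 1 lower) and 3998 genes, 1501 higher and 2497 lower, against 2125 and 2354. The median of the hnRNPs was then -0.051, which is above that of all genes. No called member changed sign under any setting tried. Same-numbered libraries deviated from their group means with correlations of -0.098, 0.031 and 0.108, so the numbers were not taken as pairs; the replicate block gave 21 members and 3945 genes called, with Ddx17 gained (0.86) and Tra2a lost (0.67), and changed no other member's call. Fewer libraries were fitted in each leave-one-out setting; the cause of the other shifts was not tested. The number of libraries, 3 per group, limits the precision, and the part of depth in it was not tested.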
